A study of Mus musculus with 19 samples.

Results

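The classical cadherins of mouse cortical projection neurons were described from Affymetrix expression arrays, as 9 genes of the 18193 with a usable probe set. The named members were Cdh2, Cdh4, Cdh6, Cdh8, Cdh9, Cdh10, Cdh11, Cdh12, Cdh13 and Cdh22. A member was a gene whose symbol the array annotation gives to a probe set, and of several probe sets the one with the highest mean over the 19 arrays stood for the gene. Cdh12 had no probe set in the annotation used and was not analysed here. Corticotectal projection neurons (CTPN), which send axons to the tectum of the midbrain, were collected at P14. Corticospinal motor neurons (CSMN), which send axons to the spinal cord, and callosal projection neurons (CPN), which send axons to the other hemisphere, were taken at 4 stages, E18, P3, P6 and P14. E is the embryonic day and P the postnatal day. Each group had 2 arrays, except CSMN at P3 with 3. All neurons came from C57BL/6 mice, carried fluorescent microspheres taken up at their axons and were sorted by fluorescence. Each group was thus meant to hold neurons whose axons reached an injected site. By the labels the CTPN came from visual cortex and the other types from sensorimotor cortex, and the effects of area and of type cannot be told apart wherever CTPN are compared.

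Classical cadherins are adhesion proteins of the cell surface that need calcium and bind cadherins on the facing cell. Their inner tails hold beta- and p120-catenin, and alpha-catenin links the complex to actin. The type I members here are Cdh2 (N-cadherin), found at the junctions of radial glia and at synapses, and Cdh4 (R-cadherin). Cdh6, Cdh8, Cdh9, Cdh10, Cdh11, Cdh12 and Cdh22 are type II cadherins, many of which mark particular layers and areas of the developing cortex. Cdh13 (T-cadherin) has the outer repeats but no inner tail, and is held in the membrane by a lipid anchor.

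Cdh6, Cdh9, Cdh10 and Cdh12 follow each other on chromosome 15 with no other protein-coding gene between them, and Cdh8 and Cdh11 are likewise neighbours on chromosome 8 (RefSeq, GRCm38.p6). Cdh13 also lies on chromosome 8, and Cdh4 and Cdh22 on chromosome 2. RefSeq start-site windows, running from 250 bases before the annotated start to 50 after it, were at hand for 6 of the 10 members. The windows of 3 of the chromosome 15 genes are shown because these neighbours differed in how they varied over the groups, Cdh6 least and Cdh10 most, and that of Cdh22 because it held the most CG pairs of the 6. Capitals mark the longest stretch of letters shared by any pair of the 6 windows.
Cdh6: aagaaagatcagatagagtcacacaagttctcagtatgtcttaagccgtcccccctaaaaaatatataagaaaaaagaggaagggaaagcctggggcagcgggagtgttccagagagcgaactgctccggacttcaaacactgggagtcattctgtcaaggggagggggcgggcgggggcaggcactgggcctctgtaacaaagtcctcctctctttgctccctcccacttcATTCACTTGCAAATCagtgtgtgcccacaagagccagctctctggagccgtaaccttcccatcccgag
Cdh9: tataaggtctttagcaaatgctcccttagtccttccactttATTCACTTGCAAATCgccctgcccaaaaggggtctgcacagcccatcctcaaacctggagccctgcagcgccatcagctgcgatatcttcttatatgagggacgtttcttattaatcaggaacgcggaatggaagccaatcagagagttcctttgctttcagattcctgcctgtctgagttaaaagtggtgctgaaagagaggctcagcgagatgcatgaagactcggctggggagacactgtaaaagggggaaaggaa
Cdh10: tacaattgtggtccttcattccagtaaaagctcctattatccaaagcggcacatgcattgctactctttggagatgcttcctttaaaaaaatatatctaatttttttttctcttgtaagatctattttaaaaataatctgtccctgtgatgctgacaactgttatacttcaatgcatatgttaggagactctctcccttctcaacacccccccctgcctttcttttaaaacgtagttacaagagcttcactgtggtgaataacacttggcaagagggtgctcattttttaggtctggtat
Cdh22: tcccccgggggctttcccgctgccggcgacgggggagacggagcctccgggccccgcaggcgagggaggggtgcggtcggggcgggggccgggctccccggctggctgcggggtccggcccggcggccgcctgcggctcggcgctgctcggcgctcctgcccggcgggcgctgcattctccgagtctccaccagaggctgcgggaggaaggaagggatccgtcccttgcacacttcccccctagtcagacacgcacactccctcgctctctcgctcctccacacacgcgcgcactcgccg
The windows are chr15:13173626-13173925 on the minus strand for Cdh6, chr15:16728665-16728964 on the plus strand for Cdh9, chr15:18820079-18820378 on the plus strand for Cdh10 and chr2:165234688-165234987 on the minus strand for Cdh22. The shared stretch, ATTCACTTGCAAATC, is 15 bases long and begins at position -18 from the start site in Cdh6 and at -209 in Cdh9. With both strands searched it was held by 2 of the 32851 windows of the table (0.006%), those of Cdh6 and Cdh9. It is a match of letters only. The Cdh22 window holds 38 CG pairs, more than 95.0% of all windows, and that of Cdh10 holds 2, more than 14.1% of them. Cdh6 and Cdh9 hold 8 each, near the median of 7 over all windows.

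The label checks separated the types as named: over the 4 stages Bcl11b (2.95 ± 0.20) and Fezf2 (1.92 ± 0.14) were higher in CSMN than in CPN, and Cux2 (-3.22 ± 0.34) and Lhx2 (-3.25 ± 0.29) were lower (log2 difference ± SE). The 5 general neuronal markers had array medians of 11.19 to 12.87. Not every array was equally clean or equally repeatable. The 10 progenitor markers had a median of 11.12 and 11.45 on the CPN E18 arrays, against 6.23 to 8.16 on all others, and the astrocyte and dividing-cell lists were also higher there. The 7 microglia markers had array medians of up to 8.92 in CPN at E18, 8.57 in CSMN at P14 and 8.18 in CSMN at P6. In the other groups these medians were 6.49 to 7.39. The part of such cells in the cadherin values was not tested. The CSMN P14 replicates were the least alike (Pearson r 0.904 across genes, against 0.949 to 0.996 for the other pairs). On replicate 1, 8 of the 9 cadherins were higher than on replicate 2. The share of all genes that were higher there is not given, so the count is not read as a trait of the cadherins. Array medians lay between 6.42 and 6.62. Fold changes are given only where every array compared was above 6.62, since the table holds no calls of detection. Values are not compared between genes, because each probe set has its own scale.

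**Figure D1:**
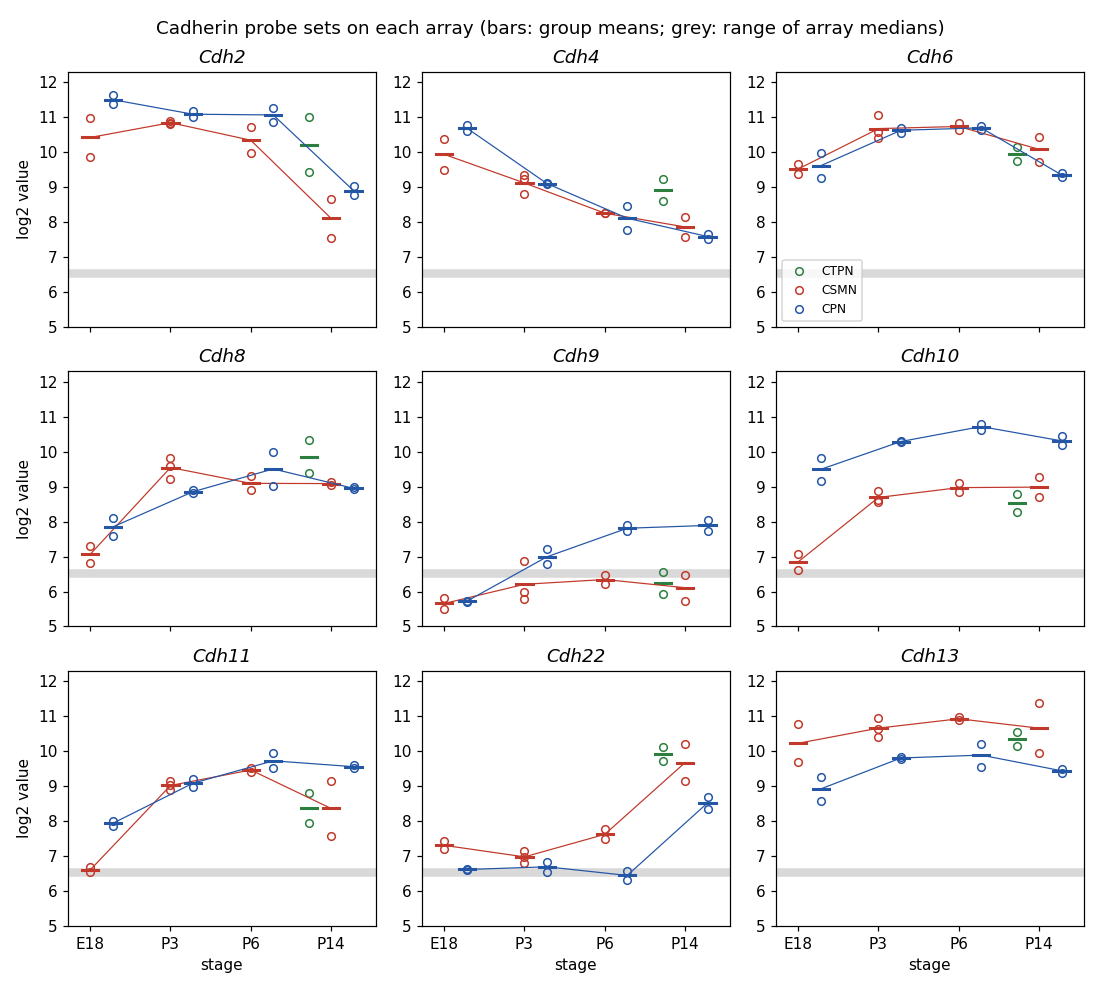
Log2 expression values (vertical axis) of the 9 cadherins on each array, by stage (horizontal axis) and neuron type, one point per array; the grey band runs over the array medians, 6.42 to 6.62. The Cdh10 points of CPN lie above those of CSMN at every stage, the Cdh13 points of CSMN above those of CPN, and Cdh2 and Cdh4 are lower at P14 than at E18 in both types.

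Each of the 9 measured members varied across the 9 groups: 9 of 9 passed a test for any difference among the groups, against 27.6% of all genes (limma F test, Benjamini-Hochberg adjusted over 18193 genes, threshold 0.05). Adjusted p was between 1.38e-06 for Cdh22 and 0.0213 for Cdh13. The members were chosen with earlier results of these data known, so counts of members past a test are a description of these genes only. The span between the highest and the lowest group mean was 3.87 on the log2 scale for Cdh10, 3.48 for Cdh22, 3.39 for Cdh2, 3.12 for Cdh11 and 3.11 for Cdh4. It was 1.38 for Cdh6, the smallest of the 9.

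Whether CSMN and CPN carry different cadherins was examined as the mean difference over the 4 stages. Cdh22 and Cdh13 were higher in CSMN, Cdh9, Cdh10 and Cdh11 were lower, and Cdh2, Cdh4, Cdh6 and Cdh8 did not pass the test. The 5 of 9 that passed compare with 8.29% of all genes (2.96% higher and 5.34% lower). The median difference over the 9 was -0.09, against 0.06 over all genes. Arrays of sorted cells measure the RNA of the whole sample, so fewer cells with a transcript and less of it per cell cannot be told apart. The mean was also taken over P3, P6 and P14, leaving out E18, at which the CPN arrays stood apart on the progenitor list. The E18 arrays stayed in the fit. Cdh22 (0.87 ± 0.16) and Cdh13 (1.04 ± 0.24) were again higher, and Cdh9 (-1.35 ± 0.19) and Cdh10 (-1.56 ± 0.15) again lower. Those 4 of 9 compare with 4.11% of all genes.

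**Figure D2:**
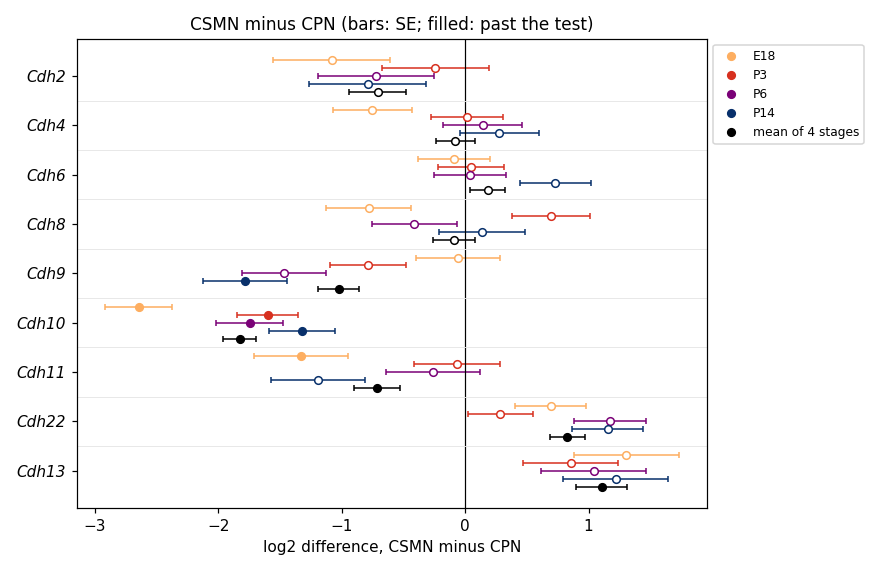
Log2 difference CSMN minus CPN (horizontal axis) for each cadherin at E18, P3, P6 and P14 and as the mean of the 4 stages; bars are standard errors and filled points passed the test. Cdh10 is filled and below 0 at all 4 stages, and Cdh13 and Cdh22 are above 0 at all 4 and filled for the mean.

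Cdh10 had the lowest adjusted p of the 9 between the types. In CSMN its log2 values were 7.07 and 6.63 at E18, 8.56, 8.89 and 8.62 at P3, 9.09 and 8.85 at P6, with 9.28 and 8.70 at P14. In CPN they were 9.82 and 9.17 at E18, 10.32 and 10.27 at P3, 10.80 and 10.63 at P6, with 10.18 and 10.44 at P14. The types did not overlap at any stage. CSMN E18 replicate 2, at 6.63, was barely above the highest array median of 6.62. The fold over the 4 stages and the E18 difference take in this array. Over the 4 stages Cdh10 was 3.55-fold lower in CSMN (-1.83 ± 0.13, adjusted p = 8.42e-07). It was lower at each stage taken alone: by -2.64 ± 0.27 at E18 (adjusted p = 1.26e-05), -1.60 ± 0.25 at P3 (0.00464), -1.75 ± 0.27 at P6 (0.00378) and -1.32 ± 0.27 at P14 (0.0251). Of the 9 cadherins, 2 passed at E18 (12.9% of all genes), 1 at P3 (0.874%), 1 at P6 (1.07%) and 2 at P14 (1.39%). At P3 the call was lost without CPN replicate 1 (-1.58, 0.0896) or 2 (-1.62, 0.0801), and at P6 without CPN replicate 1 (-1.66, 0.0519) or CSMN replicate 2 (-1.62, 0.0756). At P14 it was lost without CPN replicate 1 (-1.45) or 2 (-1.20) or CSMN replicate 2 (-1.03), with the mean of all Cdh10 probe sets (-0.67), with array weights (adjusted p = 0.974) and in a fit of the compared groups alone (0.929). No left-out array ended the call over the 4 stages.

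Cdh9, a type II cadherin known from mouse hippocampal synapses, lay between 5.49 and 6.86 in CSMN, mostly at or below the array medians, and above them in postnatal CPN. CSMN values were 5.49 and 5.82 at E18, 5.98, 5.78 and 6.86 at P3, 6.47 and 6.21 at P6, with 6.48 and 5.73 at P14. CPN values were 5.74 and 5.70 at E18, 6.78 and 7.21 at P3, 7.89 and 7.73 at P6, with 7.74 and 8.04 at P14. The types overlapped at E18 and P3, and CSMN lay below CPN at P6 and P14. Over the 4 stages the difference was -1.02 ± 0.17 (adjusted p = 0.00105), and at P14 it was -1.78 ± 0.34 (0.0156). At P6 it was -1.47 ± 0.34 and missed the threshold (0.0588), but passed without CSMN P3 replicate 3 (adjusted p = 0.0205) or either CSMN P14 array (0.0219). The P14 call was lost without CPN P14 replicate 1 (-1.93, 0.111) or 2 (-1.63, 0.193) or without CSMN P14 replicate 2 (-1.41, 0.0887), with array weights (0.998) and in a fit of the compared groups alone (0.688). The call over the 4 stages held without any array. The postnatal CPN group means were 7.89 at P14, 7.81 at P6 and 7.0 at P3; the 6 remaining groups had means of 5.66 to 6.34, under the lowest array median, and are given no order.

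Cdh13 was higher in CSMN than in CPN on every array of every stage. Its CSMN values were 10.77 and 9.68 at E18, 10.96, 10.62 and 10.39 at P3, 10.88 and 10.97 at P6, with 11.37 and 9.95 at P14. Its CPN values were 9.25 and 8.58 at E18, 9.79 and 9.82 at P3, 9.55 and 10.22 at P6, with 9.50 and 9.38 at P14. The mean difference was 1.10 ± 0.21, or 2.15-fold higher in CSMN (adjusted p = 0.00309), and it passed without any single array. No stage alone passed, with 1.31 at E18 (adjusted p = 0.056), 0.85 at P3, 1.04 at P6 and 1.22 at P14. At E18 it passed without CSMN E18 replicate 2 (1.85, adjusted p = 0.0286) or either CSMN P14 array (1.31, 0.0125), and at P14 without CSMN P14 replicate 2 (1.93, 0.0265). Neither type differed between P14 and E18 by an amount that passed (0.43 ± 0.42 in CSMN and 0.52 ± 0.42 in CPN).

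Cdh22, first described in pituitary and brain, was also higher in CSMN over the 4 stages (0.83 ± 0.14, adjusted p = 0.00157). Its CSMN values were 7.42 and 7.19 at E18, 7.15, 6.97 and 6.81 at P3, 7.76 and 7.48 at P6, with 10.21 and 9.13 at P14. Its CPN values were 6.59 and 6.64 at E18, 6.84 and 6.54 at P3, 6.32 and 6.57 at P6, with 8.68 and 8.36 at P14. CSMN lay above CPN at E18, P6 and P14, and the types overlapped at P3. Most CPN arrays before P14 were at or below the highest array median, so no fold is given for the 4 stages. No stage alone passed, the nearest being P14 (1.15 ± 0.29, adjusted p = 0.073). It passed there without CSMN P14 replicate 2 (1.69, adjusted p = 0.00276), and at E18 (0.69, 0.025) and P6 (1.17, 0.00594) without either CSMN P14 array.

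Cdh11, also known as osteoblast cadherin and expressed in mesenchyme as well as neurons, was lower in CSMN over the 4 stages by a small amount (-0.71 ± 0.19, adjusted p = 0.0278). CSMN had 6.53 and 6.67 at E18, 9.13, 9.04 and 8.88 at P3, 9.53 and 9.39 at P6, with 9.15 and 7.57 at P14. CPN had 7.87 and 8.0 at E18, 8.97 and 9.19 at P3, 9.50 and 9.94 at P6, with 9.52 and 9.59 at P14. The types were apart at E18 and P14 and overlapped at P3 and P6. The E18 difference was -1.33 ± 0.38 (adjusted p = 0.0334), and it was lost without any single E18 array (-1.40 to -1.26, adjusted p = 0.0895 to 0.121), with array weights (0.0555) and with the mean of both Cdh11 probe sets (-0.62). At P14 the difference of -1.19 did not pass (adjusted p = 0.185), and without CSMN P14 replicate 1 it was -1.98 (0.00052). The 4-stage call was lost when the mean was taken over P3, P6 and P14 (-0.51, adjusted p = 0.29). It was also lost without CPN E18 replicate 2, either CPN P3 array, CPN P6 replicate 2, either CPN P14 array, CSMN E18 replicate 1 or either CSMN P6 array (-0.74 to -0.66, adjusted p = 0.0525 to 0.0723). The 7 markers of meningeal fibroblasts had array medians of 5.60 to 6.64 over the 19 arrays. The 7 markers of endothelial cells and pericytes had array medians of 5.67 to 7.76, the highest in CPN at P3. A list median does not show single markers, and the part of such cells in the Cdh11 values was not tested.

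How the cadherins changed as the neurons matured was examined as P14 against E18 within each type. In CSMN Cdh8, Cdh10, Cdh11 and Cdh22 rose and Cdh2 and Cdh4 fell, 6 of 9 against 15.1% of all genes (9.27% higher and 5.85% lower). In CPN Cdh8, Cdh9, Cdh10, Cdh11 and Cdh22 rose and Cdh2 and Cdh4 fell, 7 of 9 against 19.2% of all genes (10.2% higher and 8.98% lower). Both type I members thus fell in both types, while each change upwards was of a type II member. Cdh6 and Cdh13 passed in neither type. The CPN E18 arrays carried the high progenitor, dividing-cell (9.75 and 9.81) and astrocyte (9.54 and 9.80) medians, and the part of these in the CPN values was not tested. The CSMN E18 arrays had progenitor medians of 6.29 and 6.37, below the array medians.

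**Figure D3:**
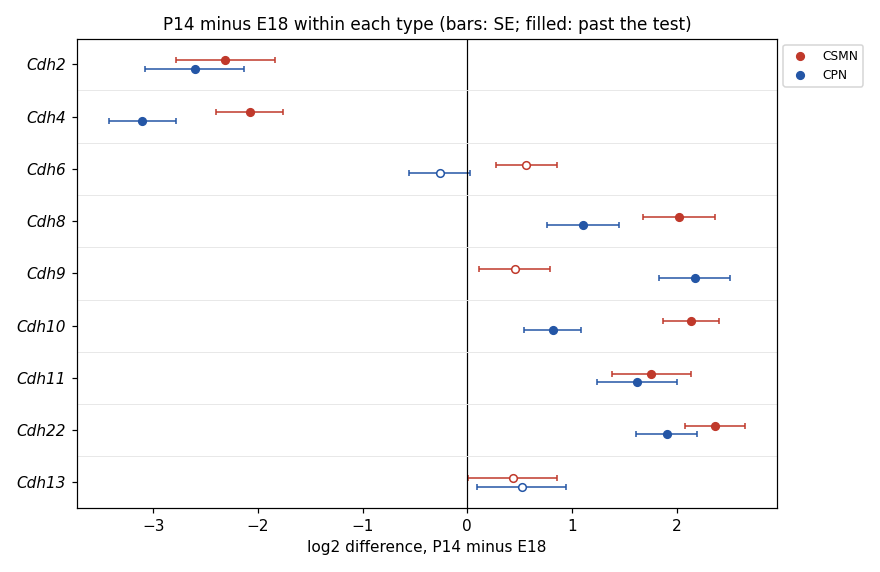
Log2 difference P14 minus E18 (horizontal axis) for each cadherin in CSMN and in CPN; bars are standard errors and filled points passed the test. Cdh2 and Cdh4 lie left of 0 in both types, and Cdh8, Cdh10, Cdh11 and Cdh22 lie right of 0 and are filled in both.

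Cdh2 was lower at P14 than at any earlier stage in CSMN and CPN. In CSMN it had 9.86 and 10.98 at E18, 10.80, 10.85 and 10.89 at P3, 9.97 and 10.72 at P6, with 8.66 and 7.56 at P14. In CPN it had 11.38 and 11.63 at E18, 11.18 and 10.99 at P3, 11.26 and 10.88 at P6, with 9.02 and 8.78 at P14. No P14 array of a type overlapped its earlier arrays. P14 was 4.97-fold lower than E18 in CSMN (-2.31 ± 0.47, adjusted p = 0.00427) and 6.07-fold lower in CPN (-2.60 ± 0.47, adjusted p = 0.00104). P14 against P6 also passed, at -2.23 ± 0.47 in CSMN (adjusted p = 0.0155) and -2.16 ± 0.47 in CPN (0.0138). The CSMN change from E18 missed the threshold without CSMN E18 replicate 2 (-1.75, adjusted p = 0.0606) and in a fit of the compared groups alone (0.0657) or with array weights (0.42). The P14 against P6 call was lost in CPN without any of its 4 arrays (-2.36 to -1.97, 0.0513 to 0.104), and in CSMN without either P6 array or P14 replicate 2 (-2.61 to -1.68, 0.0522 to 0.175), with array weights (0.388) and in a fit of the compared groups alone (0.52). The second Cdh2 probe set differed between CSMN and CPN by -0.42 over the 4 stages and by 0.19 at P14. On the main probe set CSMN lay below CPN at all 4 stages with no overlap, but the mean difference of -0.71 ± 0.23 missed the threshold (adjusted p = 0.0778). It passed without CSMN P14 replicate 1 (-0.85, adjusted p = 0.0136), CSMN E18 replicate 2 (-0.85, 0.0384) or either CTPN array (-0.71, 0.0339).

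Cdh4 fell from E18 to P14 in both types. CSMN had 10.38 and 9.50 at E18, 9.34, 9.23 and 8.79 at P3, 8.26 and 8.25 at P6, with 8.15 and 7.58 at P14. CPN had 10.79 and 10.60 at E18, 9.12 and 9.09 at P3, 7.78 and 8.45 at P6, with 7.52 and 7.66 at P14. Each group mean was below the one before it in both types. P14 was 4.22-fold lower than E18 in CSMN (-2.08 ± 0.32, adjusted p = 0.000525) and 8.60-fold lower in CPN (-3.11 ± 0.32, adjusted p = 6.55e-06). With P3 in place of E18 as the start, P14 was lower by -1.26 ± 0.29 in CSMN (adjusted p = 0.0118) and -1.51 ± 0.32 in CPN (0.00814). The CSMN change from E18 missed the threshold with array weights (0.0897) and in a fit of the compared groups alone (0.0657). Of the single steps, P3 against E18 in CPN passed (-1.59 ± 0.32, adjusted p = 0.0054), and not without CPN P3 replicate 2 (-1.58, 0.0561). The difference between the types over the 4 stages was -0.08 ± 0.16 and did not pass.

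Cdh8, a type II cadherin with a patterned expression in cortex, rose from E18 to P14 in both types. CSMN had 7.30 and 6.83 at E18, 9.83, 9.60 and 9.21 at P3, 8.90 and 9.29 at P6, with 9.04 and 9.13 at P14. CPN had 7.60 and 8.10 at E18, 8.82 and 8.89 at P3, 9.03 and 9.99 at P6, with 8.92 and 8.98 at P14. All later arrays lay above the E18 arrays of their type. P14 was 4.06-fold higher than E18 in CSMN (2.02 ± 0.35, adjusted p = 0.00117) and higher by 1.10 ± 0.35 in CPN (0.0356). In CSMN, P3 against E18 gave 2.48 ± 0.32 (adjusted p = 0.000424). With P3 in place of E18 as the start, P14 differed by -0.46 ± 0.32 in CSMN and 0.10 ± 0.35 in CPN. The CPN call was lost without CPN E18 replicate 1 (0.85), CPN P14 replicate 1 or CPN P14 replicate 2 (adjusted p = 0.131 to 0.221 over the 3), and with quantile (1.08, 0.0645) or cyclic loess scaling (1.02, 0.0688). The CSMN call was lost with array weights (0.257) and in a fit of the compared groups alone (0.0519).

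Cdh22 changed at the other end, between P6 and P14. P14 against E18 was 5.16-fold higher in CSMN (2.37 ± 0.29, adjusted p = 7.18e-05), and higher by 1.90 ± 0.29 in CPN (0.000235). P14 against P6 gave 2.05 ± 0.29 in CSMN (adjusted p = 0.00141) and 2.07 ± 0.29 in CPN (0.00062). In each type all P14 arrays lay above all earlier ones. These 4 calls passed without any single array, but P14 against P6 in CSMN was lost with array weights (adjusted p = 0.0766) and in a fit of the compared groups alone (0.52).

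Cdh10 and Cdh11 rose in both types. Cdh10 was 4.40-fold higher at P14 than at E18 in CSMN (2.14 ± 0.27, adjusted p = 9.63e-05) and higher by 0.82 ± 0.27 in CPN (0.0471). The CSMN fold takes in the E18 array of 6.63, barely above the highest array median of 6.62. Cdh11 was higher at P14 by 1.76 ± 0.38 in CSMN (0.00622) and 3.08-fold in CPN (1.62 ± 0.38, 0.0068). In CSMN both had risen by P3, by 1.84 ± 0.25 for Cdh10 (0.00066) and 2.41 ± 0.35 for Cdh11 (0.00108). When each gene's probe sets were averaged, the CSMN values were 0.44 for Cdh10 (adjusted p = 0.121) and 0.79 for Cdh11 (0.118) at P14, and 0.41 for Cdh10 at P3 (0.12), and none passed. Of the dimmer Cdh10 probe sets, those with means of 7.11 and 5.63 were lower at P14 than at E18 in CSMN (-0.59 and -0.47). With array weights the CSMN values of Cdh10 (adjusted p = 0.0549) and Cdh11 (0.179) missed the threshold, as did Cdh11 in a fit of the compared groups alone (0.191). From P3 to P14 neither passed in either type, and Cdh11 in CSMN was then -0.66 ± 0.35. The Cdh10 call in CPN was lost with the mean of its probe sets (0.20) and without 12 of the 19 arrays in turn (0.49 to 0.94, adjusted p = 0.0573 to 0.412). Cdh9 rose in CPN (2.17 ± 0.34, adjusted p = 0.000302) and was 0.45 ± 0.34 higher at P14 in CSMN, short of the threshold. With P3 in place of E18 as the start, Cdh9 at P14 in CPN differed by 0.90 ± 0.34 and did not pass (adjusted p = 0.146).

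Whether the change from E18 to P14 differed between the types was tested directly, as the CSMN difference minus the CPN difference. None of the 9 passed, against 5.18% of all genes. The nearest were Cdh9 (-1.72 ± 0.48, adjusted p = 0.0537) and Cdh10 (1.32 ± 0.38, 0.0597). Cdh9 passed without CSMN P3 replicate 3 (-1.72, 0.024) or CSMN P14 replicate 1 (-2.09, 0.00977). Cdh10 passed without CPN E18 replicate 2 (1.65, 0.0307), CSMN E18 replicate 1 (1.55, 0.0412) or CSMN P14 replicate 2 (1.61, 0.0178).

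Cdh6 was highest at P3 and P6 in both types. CSMN had 9.65 and 9.39 at E18, 11.06, 10.57 and 10.40 at P3, 10.83 and 10.64 at P6, with 10.44 and 9.73 at P14. CPN had 9.98 and 9.25 at E18, 10.70 and 10.56 at P3, 10.64 and 10.76 at P6, with 9.30 and 9.41 at P14. In each type the P3 and P6 arrays lay above those of E18, and in CPN above those of P14. P3 against E18 passed in CSMN (1.16 ± 0.27, adjusted p = 0.0157) and in CPN (1.01 ± 0.29, 0.0453), and P14 against P6 passed in CPN (-1.35 ± 0.29, 0.0129). The CSMN rise was lost without CSMN E18 replicate 2 (1.02) or CSMN P3 replicate 1 (0.96) and with quantile (0.69) or loess (0.67) scaling. The CPN rise was lost with the mean of all Cdh6 probe sets (0.60) and without any of 14 arrays (0.65 to 1.08), and the CPN fall without any of its 4 arrays (-1.40 to -1.29). CSMN and CPN differed by 0.18 ± 0.14 over the 4 stages, which did not pass.

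Over the 6 single steps, 12 of 54 tests of a member passed. They were 4 of 9 in CSMN from E18 to P3 (10.4% of all genes), 3 in CPN from E18 to P3 (8.08%), 2 in CSMN from P6 to P14 (6.03%) and 3 in CPN from P6 to P14 (5.84%). From P3 to P6 none of the 9 passed in CSMN (0.0275%) or CPN (0.0055%). The largest differences of this step were those of Cdh4, -0.86 ± 0.29 in CSMN and -0.99 ± 0.32 in CPN. Cdh9 in CPN made up the last of the 12 (1.27 ± 0.34 from E18 to P3, adjusted p = 0.0314), a call lost without any of its 4 arrays (1.06 to 1.49, 0.0736 to 0.292).

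The cadherins of CTPN were examined at P14, where they were set against CSMN and against CPN, 2 comparisons that share the CTPN arrays. Against CPN, Cdh22 was higher in CTPN and Cdh9 and Cdh10 lower, 3 of 9 against 1.06% of all genes (0.456% higher and 0.605% lower). Against CSMN none of the 9 passed, against 0.192% of all genes. Cdh10 had 8.27 and 8.79 in CTPN, 9.28 and 8.70 in CSMN and 10.18 and 10.44 in CPN. Its difference was -1.78 ± 0.27 against CPN (adjusted p = 0.00335) and -0.46 ± 0.27 against CSMN (0.606). Cdh9 had 5.92 and 6.54 in CTPN, 6.48 and 5.73 in CSMN and 7.74 and 8.04 in CPN, with differences of -1.66 ± 0.34 against CPN (0.0278) and 0.12 ± 0.34 against CSMN. Cdh22 had 9.71 and 10.13 in CTPN, 10.21 and 9.13 in CSMN and 8.68 and 8.36 in CPN, and was 2.64-fold higher than in CPN (1.40 ± 0.29, 0.0292). In all 3 the CTPN arrays overlapped those of CSMN and lay apart from those of CPN. For Cdh9 all CTPN and CSMN arrays of P14 were under the highest array median of 6.62. The CSMN P14 replicates were the least alike of all pairs, which widens the range that CTPN can overlap. The share of all genes with this overlap is not given, so it is not read as a trait of the cadherins. The same overlap was seen for Cdh6, Cdh11 and Cdh13, which did not pass. CTPN had 9.74 and 10.16 for Cdh6, 7.93 and 8.81 for Cdh11, and 10.53 and 10.14 for Cdh13. Their differences against CPN were 0.59, -1.18 and 0.90.

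**Figure D4:**
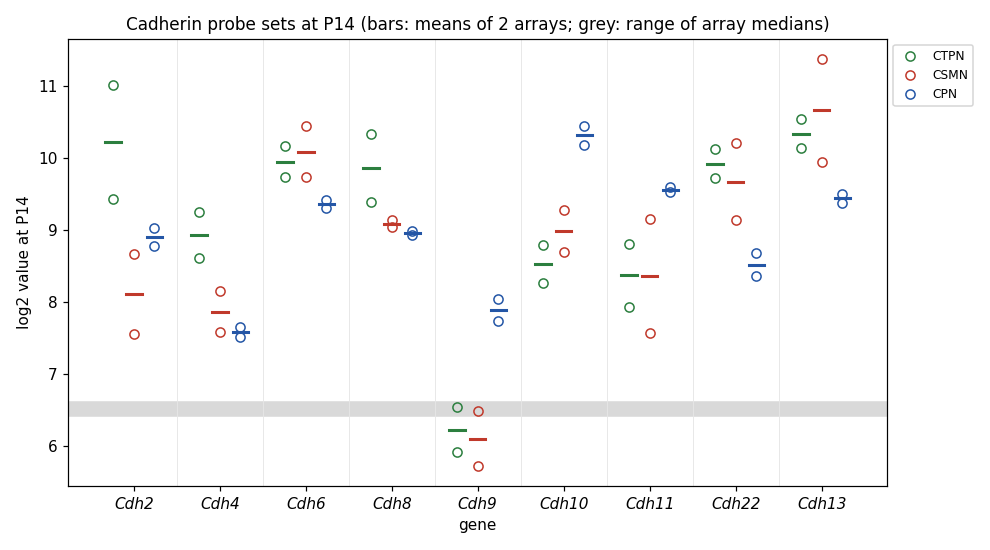
Log2 values (vertical axis) at P14 in CTPN, CSMN and CPN for each cadherin, one point per array. CTPN overlap CSMN and lie apart from CPN for Cdh6, Cdh9, Cdh10, Cdh11, Cdh13 and Cdh22, and lie above both other types for Cdh2, Cdh4 and Cdh8. The share of all genes with either pattern is not given.

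Both type I cadherins had their highest P14 values in CTPN. Cdh2 had 9.42 and 11.02 in CTPN, against 8.66 and 7.56 in CSMN and 9.02 and 8.78 in CPN. Cdh4 had 9.24 and 8.61 in CTPN, against 8.15 and 7.58 in CSMN and 7.52 and 7.66 in CPN. The CTPN arrays lay above all others of P14 for both genes, yet the differences missed the threshold: for Cdh2 2.11 ± 0.47 against CSMN (adjusted p = 0.130) and 1.32 ± 0.47 against CPN (0.399), and for Cdh4 1.07 ± 0.32 (0.350) and 1.34 ± 0.32 (0.0666). Without CSMN P14 replicate 1, Cdh2 (2.66, adjusted p = 0.00313), Cdh4 (1.35, 0.0153) and Cdh22 (0.79, 0.0293) were higher in CTPN than in CSMN, and Cdh2 also without CTPN replicate 1 (2.90, 0.0381). Cdh4 passed against CPN without any single CSMN array of E18 (0.0362) or P14 (0.031). Cdh8 had 9.38 and 10.32 in CTPN, 9.04 and 9.13 in CSMN and 8.92 and 8.98 in CPN, again with no overlap and no call. The calls against CPN were lost for Cdh9 without any of its 4 arrays (-1.97 to -1.35), for Cdh10 without CPN P14 replicate 2 (-1.65, 0.0671) or with the mean of its probe sets (-0.65), and for Cdh22 without any of its 4 arrays or CSMN P3 replicate 2 (1.20 to 1.61).

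Several members had further, mostly dimmer probe sets. The second Cdh13 probe set differed by 1.71 between CSMN and CPN over the 4 stages. Without a test of their own, the second Cdh4 and Cdh2 probe sets were lower at P14 than at E18 in CSMN (-1.82 for Cdh4 and -1.33 for Cdh2) and in CPN (-3.45 and -2.81). The other 3 Cdh10 probe sets, with means of 7.11, 5.93 and 5.63, differed between the types by -0.20, -0.94 and -0.52, the same direction as the main one and smaller. The second Cdh11 probe set, with a mean of 6.59, was -0.17 in CSMN between P14 and E18, where the main one was 1.76. The 2 other Cdh8 probe sets differed by 0.11 and 0.74 between the types at E18, where the main one was -0.78. Cdh9 and Cdh22 have a single probe set each.

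Among the members, correlations of the 9 group means were highest for Cdh10 and Cdh11 (r = 0.81), Cdh9 and Cdh10 (0.80), and Cdh9 and Cdh11 (0.78), and lowest for Cdh2 and Cdh22 (-0.79). The neighbours Cdh6 and Cdh9, whose windows share the marked stretch, correlated at 0.17, and the neighbours Cdh8 and Cdh11 at 0.76. Group means share stage and type, so these values are a description. The genes with the most similar pattern were sought among 7130 whose group means also spanned at least 1 on the log2 scale. For Cdh2 they were Cdc7 (0.977), Lrig2 (0.975) and St7 (0.970), and for Cdh4 Szrd1 (0.969), Zbtb12 (0.946) and Macroh2a1 (0.943). For Cdh6 they were Slc6a6 (0.944), Rbms1 (0.942) and Cyrib (0.938), and for Cdh8 Pdcd10 (0.955), Dnajb14 (0.947) and the synaptic adhesion gene Nlgn1 (0.945). For Cdh9 they were the integrin subunit Itgb3 (0.945), the phosphatase Ptprm (0.940) and Chn2 (0.918). For Cdh10 they were Bpgm (0.958), Pdzrn3 (0.957) and the hyaluronan receptor Cd44 (0.952), and for Cdh11 Ythdc2 (0.974), Tmem60 (0.972) and Atraid (0.972). For Cdh22 they were the serotonin receptor Htr1f (0.980), Flywch2 (0.977) and Sowaha (0.976), and for Cdh13 Doc2b (0.956), Ino80c (0.942) and Gng7 (0.938).

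Of the catenins and other adherens junction partners, 22 of 24 listed genes were measured. Over the 4 stages 1 was higher in CSMN than in CPN, 6 were lower and 15 did not pass, with a median of -0.16 (8.29% of all genes passed, 2.96% higher and 5.34% lower, with a median of 0.06). Vcl (vinculin, which ties junctions to actin) was lower by -1.75 ± 0.18, Nectin3 (a nectin of cell junctions) by -1.53 ± 0.23 and Ctnna1 (alpha-E-catenin) by -1.47 ± 0.18. Magi1, a junction scaffold, was higher by 0.82 ± 0.12. At E18 1 was higher, 6 were lower and 15 did not pass, where 12.9% of all genes passed. Ctnna1 had 7.15 and 7.18 in CSMN at E18, against 11.07 and 10.94 in CPN, and Vcl had 5.96 and 5.70, against 9.97 and 9.01. Both differed most at the stage at which the CPN arrays carried the progenitor transcripts, whose part in it was not tested. Over P3, P6 and P14 the mean difference passed for Nectin3 (-1.89 ± 0.26), Vcl (-1.11 ± 0.21) and Magi1 (0.94 ± 0.14), 3 of 22 against 4.11% of all genes, and missed the threshold for Ctnna1 (adjusted p = 0.0799). Nectin3 had 9.20 and 9.24 in CSMN at P6, against 11.44 and 11.48 in CPN, and 8.21 and 7.13 in CSMN at P14, against 10.22 and 10.20 in CPN.

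From E18 to P14, 1 rose and 6 fell in CPN, where 19.2% of all genes passed, with Ctnna1 (-2.94), Vcl (-1.74) and Afdn (-1.44) lower and Numb (1.43) higher. In CSMN Numb rose (1.98) and 21 of the 22 did not pass, where 15.1% of all genes passed. The direct test of the difference passed for 4 of 22, against 5.18% of all genes: Ctnna1 (2.90), Vcl (2.36), Ctnnbip1 (1.85) and Ctnnb1, beta-catenin (1.37). With P3 as the start, 1 rose and 1 fell in CPN (8.13% of all genes) and 1 rose and 4 fell in CSMN (12.6%). Of the other type I and type II cadherins, 8 of 9 listed were measured. Cdh7 was higher in CSMN over the 4 stages (0.86 ± 0.17) and without E18 (0.84 ± 0.20), and the other 7 did not pass.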

How the data were processed

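Each of the 19 arrays measured RNA of sorted neurons after 2 rounds of in vitro transcription and biotin labelling, per the labels' protocols. The authors deposited 1 log2 value per probe set and array, normalized with RMA, per the submitters' processing notes; further settings are not given in the sources used here. RMA is meant to set all arrays to like distributions, so a change shared by most genes may not show. The deposited arrays were not fully alike, with medians of 6.42 to 6.62. Further quantile scaling moved the Cdh13 difference between the types at E18 from 1.31 to 1.65. It moved the Cdh6 change from E18 to P3 in CSMN from 1.16 to 0.69. The table holds 45101 probe sets: 64 controls, 932 with several gene symbols and 9160 without one were left out, and the probe set with the highest mean stood for each of 18193 genes. The number of arrays limits the precision.

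Group means were fitted with limma 3.58.1 (R 4.3.3) over all 9 groups, with 10 residual and 4.46 prior degrees of freedom. P-values from limma were adjusted by the Benjamini-Hochberg method over all genes of a comparison, and an adjusted p under 0.05 passed. Values after ± are standard errors of the log2 difference. The fit was tested on simulated data. Replicates are independent collections, per the labels. Same-numbered arrays had deviations correlated by 0.20 at E18, 0.10 to 0.21 at P3, -0.09 at P6 and 0.21 at P14. These values cannot decide whether the replicate numbers pair the samples. In a group with only a pair of arrays the deviations are equal and opposite. Each replicate number therefore gave the same value at E18, P6 and P14.

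The members and gene lists were chosen with earlier results of these data known. All members are named, as are up to 4 genes of a partner list by size of difference and the 3 most similar genes per member. Alternatives were other scalings, filters, probe set rules, variance models, blocks and left-out arrays. A result given without E18 leaves that stage out of the comparison, while its arrays stay in the fit. For the partner lists, the means without E18 and the P14 against P3 changes were added after values were seen. So was the test of the P3 against E18 difference between types.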

Additional observations from a re-analysis of the deposited data

Results flagged for a closer look

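On its main probe set the Cdh8 difference between the types changed direction between stages, but it did not pass at any stage. At E18 it was lower in CSMN than in CPN (-0.78 ± 0.35, adjusted p = 0.147), with 7.30 and 6.83 in CSMN against 7.60 and 8.10 in CPN. At P3 it was higher in CSMN (0.69, adjusted p = 0.612), with 9.83, 9.60 and 9.21 against 8.82 and 8.89. At P14 the CSMN arrays also lay above those of CPN, by 0.14 (adjusted p = 0.866). The standard deviations at P14 were 0.06 in CSMN and 0.04 in CPN, each from 2 arrays. The median standard deviation over all 9 groups was 0.32. No array of the types overlapped at these 3 stages. At P6 the types overlapped, with a difference of -0.41 (8.90 and 9.29 in CSMN against 9.03 and 9.99 in CPN). The change from E18 to P3 differed between the types by 1.47 ± 0.47 and missed the threshold (limma, adjusted p = 0.110), as did the change from E18 to P14 (0.92 ± 0.49, adjusted p = 0.330). The other 2 Cdh8 probe sets were higher in CSMN at E18, by 0.11 and 0.74.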

How the results depend on the processing

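Of the 39 member calls, 20 passed without each of the 19 arrays in turn. Over the 11 other settings, 356 of 403 values kept their direction and passed, 45 missed the threshold and 2 turned round. Those 2 are the P14 against E18 differences of Cdh8 (-0.46) and Cdh11 (-0.66) in CSMN with P3 as the start, which leaves E18 out of the comparison. The median difference of all genes between CSMN and CPN at E18 was 0.10, and 0.02 after cyclic loess scaling.

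The count of members past the test over the 4 stages (5) was 3 when a log2 difference of at least 1 was required. At E18 (2) it was 4 with quantile scaling, Cdh13 (1.65) and Cdh22 (0.70) being added as higher, and 1 with array weights. At P3 (1) it was 4 with array weights and 2 in a fit of the compared groups alone. At P6 (1) it was 2 with quantile or cyclic loess scaling, an intensity trend or the replicate block, 3 with the mean of all probe sets and 4 with array weights. At P14 (2) it was 4 with cyclic loess scaling, 1 with genes above the median only, and 0 with array weights or the compared groups alone. For P14 against E18 it was 4 in CPN (7) without E18, and in CSMN (6) 1 with array weights, 2 with the compared groups alone and 3 without E18. For the difference of that change between types (0) it was 1 with quantile or cyclic loess scaling, the mean of all probe sets, an intensity trend or the replicate block. For CTPN against CPN (3) it was 5 with array weights. Array weights gave both CSMN P14 arrays 0.143. The replicate block added Cdh9 at P6 (-1.47, adjusted p = 0.0244) and for the difference of change (-1.72, 0.0263), and Cdh13 at E18 (1.31, 0.0406; count 3). It ended the calls of Cdh11 over the 4 stages (-0.70, 0.0514; count 4) and of Cdh10 for P14 against E18 in CPN (0.82, 0.056; count 6). The causes were not tested.

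With each array left out, the counts ranged from 4 to 6 over the 4 stages, 1 to 4 at E18, 0 to 1 at P3, 0 to 3 at P6 and 0 to 3 at P14. They ranged from 5 to 7 for P14 against E18 in CPN, 5 to 7 in CSMN, 0 to 1 for its difference between types, 0 to 3 for CTPN against CSMN, 0 to 5 for CTPN against CPN, 9 to 17 over the single steps, and 8 to 9 for any difference among groups.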
